A study of Drosophila melanogaster with 3 samples.

Results

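The genes described here are 8 Drosophila genes for DNA-binding proteins that have been linked to the recruitment of Polycomb complexes: Trl, z, pho, phol, grh, Spps, cg and Dsp1. They were taken by name from a fixed list and matched to the gene models, where they make up 8 of 13945 protein-coding genes. Binding of BtbVII was read at each gene over its body and 1000 bp on either side, a window that held 32 of the 30000 peak summits in the list pooled over replicates. Of these 32 summits, 9 belonged to the optimal set of 5219 regions that passed the authors' irreproducible discovery rate (IDR) threshold.

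The study was a chromatin immunoprecipitation with sequencing (ChIP-seq) of the BTB-domain protein BtbVII in 3 biological replicates that form 1 group. Per the labels, the flies were a stable transgenic line that expressed BtbVII with enhanced GFP at its C terminus, and a GFP antibody was used for the immunoprecipitation. The material was intact embryos of mixed sex aged 0 to 24 h, so each library pooled many cell types and stages, and no library of another genotype or treatment was compared. The copy number of the tagged gene, and whether untagged BtbVII was also present, were not stated in the sources used here.

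Polycomb complexes keep developmental genes silent, and in flies they are brought to DNA at Polycomb response elements, stretches of sequence read by several DNA-binding proteins together. Trl encodes GAGA factor, a BTB protein that binds GAGAG repeats and opens chromatin at promoters, and z encodes Zeste, which binds regulatory DNA and links distant sites. Pho and its relative Phol bind a GCCAT core and anchor the Pho repressive complex. Spps is a zinc finger protein of the Sp1 and KLF family, Cg (Combgap) is a zinc finger protein that binds GT repeats, Grh (Grainyhead) is a regulator of epithelial genes, and Dsp1 is a high mobility group protein. The values below describe BtbVII at the genes for these proteins, not the binding of the proteins themselves.

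In the text, a candidate is any summit of the pooled list and a strong summit is one in the optimal set. The strong summits were exactly the 5219 of highest signal in the pooled list, ending at a signal of 172.41, and the next summit stood at 172.402. Signal here means the authors' own score for a region, as their peak calling produced it, and it was compared only within a list. The pooled list ran from 52.7 to 3724, with a median of 258 over strong summits and 77.0 over the others. The pooled list and each replicate list hold 30000 regions, a length that is a setting. Read counts were not used, and library depth is therefore unknown.

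The windows that follow show the sequence under 5 strong summits at Trl and Dsp1, the members with the highest signals. Each runs from 100 bp before to 100 bp after the summit in Release 6 (dm6), with 5′ to 3′ running along the strand of the named gene. Summits are numbered 5′ to 3′ along the gene, weaker candidates included. Trl summits 3, 4 and 6 lie at chr3L:14759417-14759617, chr3L:14758166-14758366 and chr3L:14756023-14756223 on the minus strand. Dsp1 summits 1 and 3 lie at chrX:16332921-16333121 and chrX:16335240-16335440 on the plus strand. Capitals mark matches, on either strand, to GAGAG (GAGA factor; read as CTCTC on the other strand), to a Zeste word (TGAGTG is the first form, then CGAGTG as the second form, then TGAGCG as another form and finally CGAGCG), and to GCCAT (Pho; read as ATGGC on the other strand). A match describes letters only and is not a bound site.
Trl summit 3: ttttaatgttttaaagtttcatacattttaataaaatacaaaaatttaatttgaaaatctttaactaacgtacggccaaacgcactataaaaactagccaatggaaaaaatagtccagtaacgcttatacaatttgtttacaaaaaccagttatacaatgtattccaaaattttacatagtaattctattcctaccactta
Trl summit 4: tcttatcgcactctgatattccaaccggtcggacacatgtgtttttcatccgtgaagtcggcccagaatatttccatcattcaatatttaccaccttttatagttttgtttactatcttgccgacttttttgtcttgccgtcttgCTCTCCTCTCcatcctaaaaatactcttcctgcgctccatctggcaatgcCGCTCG
Trl summit 6: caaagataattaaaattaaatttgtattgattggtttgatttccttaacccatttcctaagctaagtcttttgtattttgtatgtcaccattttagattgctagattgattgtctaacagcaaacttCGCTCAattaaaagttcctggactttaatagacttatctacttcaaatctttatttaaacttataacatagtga
Dsp1 summit 1: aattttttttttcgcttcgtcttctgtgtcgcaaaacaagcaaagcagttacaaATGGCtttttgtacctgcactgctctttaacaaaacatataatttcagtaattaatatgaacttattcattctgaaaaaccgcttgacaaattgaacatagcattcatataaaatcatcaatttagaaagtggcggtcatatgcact
Dsp1 summit 3: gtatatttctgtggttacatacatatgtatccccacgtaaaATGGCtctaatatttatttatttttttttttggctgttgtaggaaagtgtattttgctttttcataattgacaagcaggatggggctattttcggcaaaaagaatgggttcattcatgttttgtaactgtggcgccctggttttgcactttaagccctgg

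The window under Trl summit 3, the strongest of all 32, has no capital letter and a GC content of 24.9%. Trl summit 4 holds 2 GAGAG matches and 1 Zeste match, Trl summit 6 holds 1 Zeste match, and each Dsp1 window holds 1 GCCAT match. Trl summits 2 and 5, also strong, are not shown and hold no match to these words.

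Of the 8 members, 3 carried at least 1 strong summit, against 29.1% of all protein-coding genes. These were Trl with 5, grh with 2 and Dsp1 with 2. The genes cg and phol had candidates but no strong summit, with 8 and 3 candidates. No candidate fell in the windows of z, pho and Spps. Thus 5 of 8 members had a candidate, against 61.6% of protein-coding genes, and 3 of these 5 had a strong summit, against 47.2% of genes with a candidate. Of the 32 candidates, 9 were strong, against 17.4% of all pooled candidates.

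The members' windows were longer than usual, with a median of 10.1 kb against 4.17 kb over protein-coding genes, and longer windows catch more summits. Genes with a window under 5 kb, the class of z, had a strong summit in 19.3% of cases. The share was 35.6% for windows of 5 to 10 kb, the class of phol, Spps and Dsp1. It was 53.1% for windows of 10 to 20 kb, the class of Trl, pho and cg, and 58.9% for windows of 20 to 50 kb, the class of grh. Summed over the 8 members, there were 0.0850 strong summits per kb in 105.88 kb, against 0.0542 per kb over all protein-coding windows. Trl supplied 5 of the 9.

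**Figure D1:**
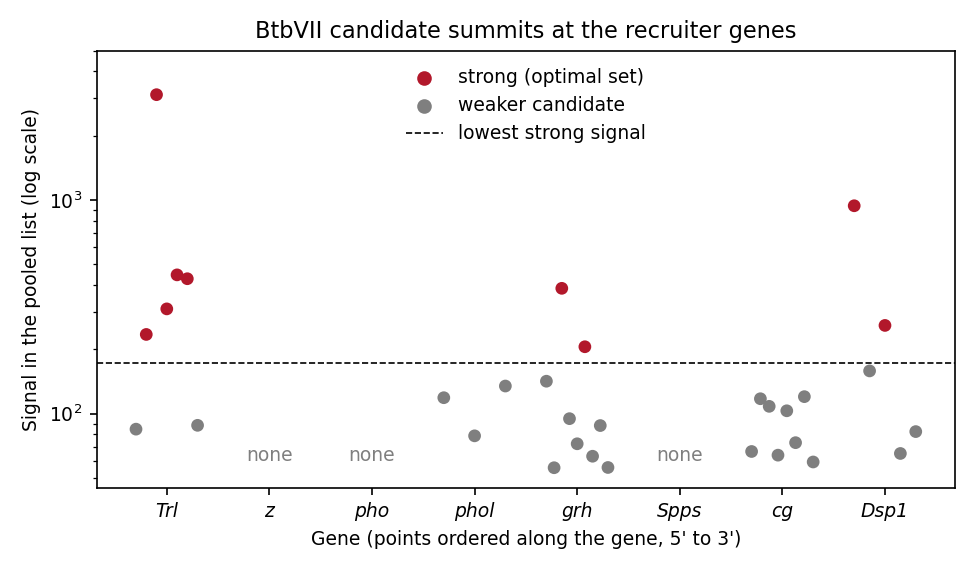
Signal of each candidate summit in the pooled list (y axis, log scale, in the units of the authors' peak caller) for the 8 genes, with points ordered 5′ to 3′ within a gene. Red points are strong and grey points are weaker; the dashed line is the lowest strong signal, 172.41. Trl holds 5 red points and the highest value, 3114, while z, pho and Spps have no point.

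Trl (FBgn0013263, chromosome 3L, 14747929 to 14761049, minus strand) carried the strongest BtbVII summit of any member. Summit 3, in the region from 14759310 to 14759751, had a signal of 3114 and ranked 4 of 30000. Its signal was 1200 in replicate 1, 1330 in replicate 2 and 599 in replicate 3, and its rank in those lists was 4, 5 and 4. The replicate summits lay 27, 13 and 11 bp from the pooled summit. All replicates thus placed it among their highest regions and within a short distance.

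This summit lay 1532 bp downstream of the most upstream Trl TSS (transcription start site) and 1555 bp upstream of the TSS at 14757962, from which 7 of the 10 annotated Trl transcripts start. The long intron that holds it belongs to 1 of the 10 transcripts, the transcript from the most upstream TSS. For the other annotated Trl transcripts the summit is upstream of their start. The lists do not show which transcripts the embryos made.

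The other 4 strong summits of Trl were weaker by a wide margin. Summit 2 (14760219 to 14760668) had a pooled signal of 235 and rank 3095, and lay in an intron 605 bp downstream of the first TSS. Its ranks were 7110, 2476 and 2672 in replicates 1, 2 and 3, with signals of 58.7, 114 and 56.3. It was thus outside the top 5219 regions of replicate 1 and inside those of the others.

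Summit 4 (14758041 to 14758490) lay 304 bp upstream of the TSS that Trl shares with CG42507, an overlapping gene on the same strand. Its pooled signal was 310 at rank 1897, and its signals of 158, 126 and 50.1 ranked 1181, 2074 and 3403. It was the nearest strong summit to the start shared by most Trl transcripts, and all replicates placed it in their top 5219.

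Summit 5 (14757125 to 14757241) lay in a 5′ UTR, 125 bp downstream of a Trl TSS, in sequence that CG42507 also covers. Its pooled signal was 447 at rank 955. Its replicate signals were 79.6, 306 and 69.0, at ranks 4220, 361 and 1799. Replicate 2 placed it far above the other replicates, although all had it in their top 5219. Summit 6 (14755898 to 14756347) lay in an intron that all 10 transcripts span, 1213 bp downstream of the nearest TSS, and CG42507 covers it too. Summit 6 had a pooled signal of 429 at rank 1031, with signals of 189, 186 and 51.4 at ranks 841, 990 and 3245.

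The 5 strong summits spanned 4321 bp, all in the upstream part of the gene. Summit 3 held 68.7% of their summed signal of 4534. Both weaker candidates of Trl lay outside this span: summit 1, with a signal of 84.7, was 619 bp upstream of the first Trl TSS and inside a coding exon of the neighbour Tsen34, and summit 7 had a signal of 88.3. No candidate lay farther 3′ than summit 7, which was 5909 bp from the first TSS.

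At least 5 strong summits lay in the windows of 173 protein-coding genes, and for 30 of the 1182 genes in the length class of Trl. Counted per kb, Trl had 0.331 strong summits, against a median of 0.209 over genes with any, and 710 genes were at least as dense. Among the 5219 strong summits, 33 began a run of 5 or more within a span as short as that at Trl. The highest count for any protein-coding gene was 17. The count at Trl was therefore high but shared with other genes, whereas its strongest summit was exceeded by only 3 of the 30000.

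**Figure D2:**
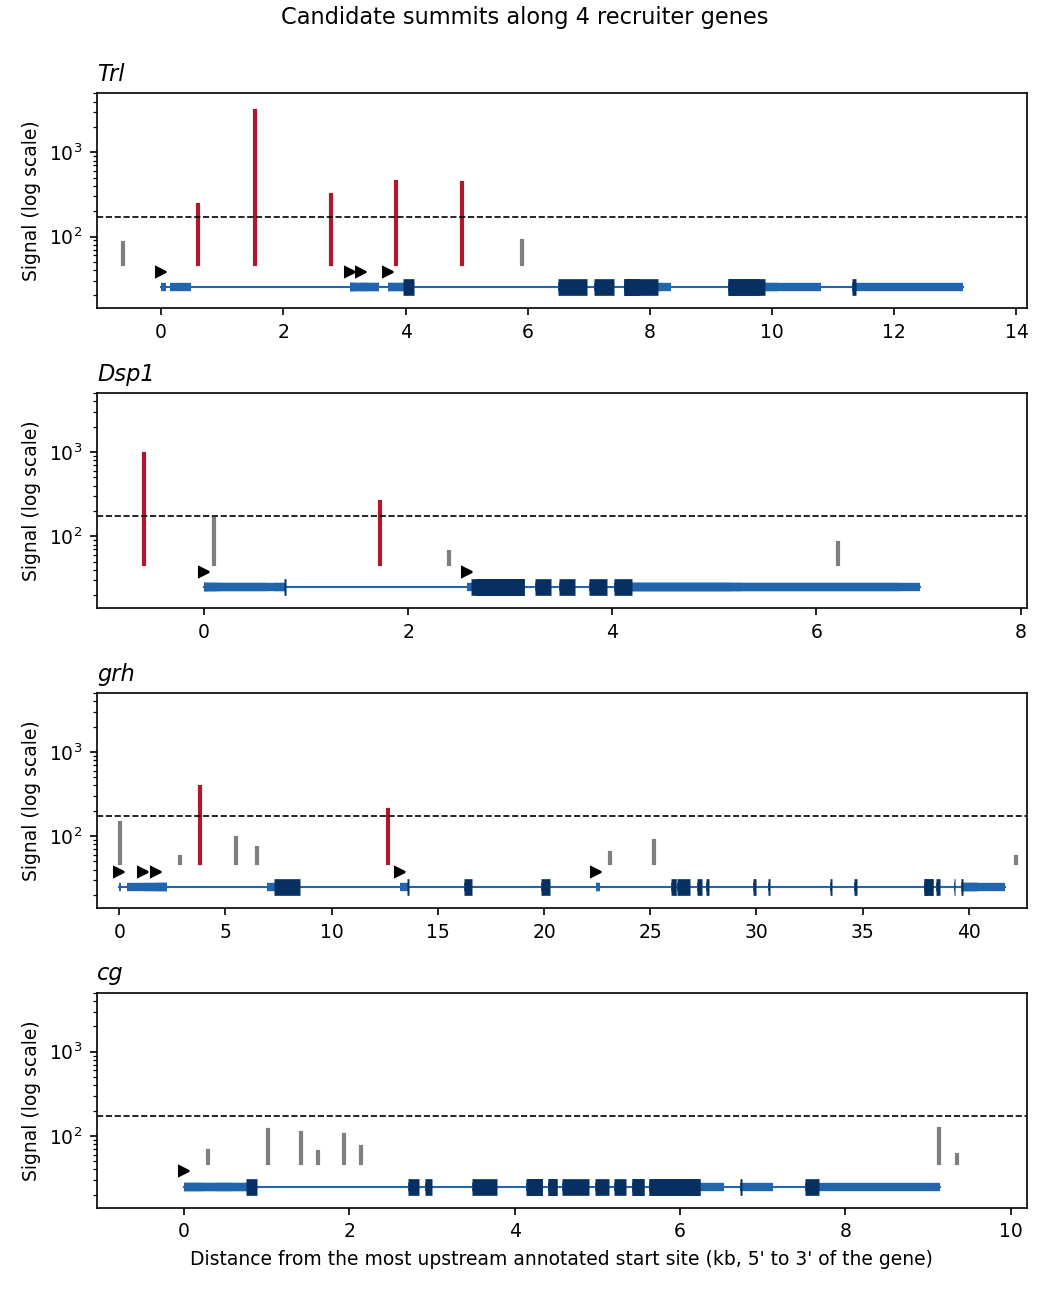
Candidate summits along Trl, Dsp1, grh and cg. The x axis is the distance in kb from the most upstream annotated start site, 5′ to 3′, and the y axis is pooled signal on a log scale; red lines are strong summits, grey lines weaker ones, arrowheads start sites, blue bars exons and dark bars coding sequence. The strong summits of Trl lie within 4321 bp in its upstream part, and those of Dsp1 lie 591 bp upstream of its first start site and in an intron.

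Dsp1 (FBgn0278608, chromosome X, 16333612 to 16340624, plus strand), the gene for the high mobility group protein, had the next strongest summit. Summit 1 (16332808 to 16333176) had a pooled signal of 941 and ranked 204. Its signals of 396, 407 and 174 ranked 175, 194 and 237 in replicates 1, 2 and 3, so the replicates ordered it almost alike. The summit was outside the gene, 591 bp upstream of the Dsp1 TSS used by 6 of 7 transcripts. It lay in an intron of CG9921, a divergent neighbour with a TSS 12 bp from that of Dsp1, and was 579 bp downstream of the CG9921 TSS. The position therefore does not assign this summit to either gene.

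Dsp1 summit 3 (16335115 to 16335564) lay inside the gene, in an intron, 1728 bp downstream of the first TSS and 844 bp upstream of the second. Its pooled signal was 259 at rank 2594. The replicate signals were 70.1, 135 and 55.1, at ranks 5300, 1801 and 2791, so replicate 1 placed it just below its top 5219. The replicate summits lay 0, 12 and 198 bp from the pooled summit, so replicate 3 peaked some way off. Between summits 1 and 3 lay summit 2, in the 5′ UTR and 95 bp from the first TSS. It had the highest signal of any weaker member candidate, 159 at rank 5966. Its ranks of 1818, 16911 and 20820 were far apart, with replicate 1 alone placing it in its top regions. The other candidates, summits 4 and 5, had signals of 65.2 and 82.5. In the length class of Dsp1, 314 of 2997 genes had 2 or more strong summits.

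The gene grh (FBgn0259211, chromosome 2R, 17801132 to 17842820, plus strand) encodes Grainyhead and has the longest window of the 8, 43.7 kb. It held 9 candidates, of which 2 were strong. Summit 3 (17804702 to 17805151) lay in an intron, 2060 bp past the nearest TSS, and its pooled signal was 386 at rank 1252. Its signals were 148, 171 and 73.7, and its ranks 1354, 1168 and 1558, which were close to each other.

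The other strong summit of grh, summit 6 (17813570 to 17814019), lay 549 bp upstream of an internal TSS with a signal of 206 at rank 3903. It was the lowest strong summit of the members. Its signals were 95.5, 85.4 and 23.3 at ranks 3070, 4109 and 14769, so replicate 3 did not place it in its top regions. Summit 1, in the 5′ UTR 40 bp from the first TSS and overlapped by asRNA:CR45270, was the highest weaker candidate of grh. Its signal was 142 at rank 7160, with ranks of 11601, 4300 and 10864. The remaining 6 candidates ran from 55.9 to 94.8, and the last of them lay beyond the 3′ end, 83 bp upstream of the neighbour Orai. In its length class, 293 of 807 genes had 2 or more strong summits, and its density of 0.0458 per kb was below the 0.0542 over all windows.

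The gene cg (FBgn0000289, chromosome 2R, 14173693 to 14182838, plus strand) encodes Combgap and had many weak candidates but no strong one. Its 8 candidates had signals from 59.5 to 120, against the lowest strong signal of 172.41. In its length class, 248 of the 1182 genes (21.0%) had at least as many candidates. From 5′ to 3′, the first 6 lay between 295 and 2147 bp downstream of the only annotated TSS, 1 in the 5′ UTR and 5 in an intron. Some of their regions overlap each other, and summits 3 and 4 fell in the same region of replicates 1 and 2, so the 8 do not count separate sites.

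The highest of them, summit 7 in the 3′ UTR, had a signal of 120 at rank 9160, ranked 10794 and 9935 in replicates 1 and 2, and lay in no region of replicate 3. Summit 2 had a signal of 118 at rank 9473, with ranks of 13132, 8139 and 2585. The best rank anywhere in the cg window was 7403, 6568 and 2585 in the 3 replicates, so replicate 3 alone had a region of its top 5219 there. The nearest strong summit was 2115 bp beyond the gene, with a signal of 241, 251 bp upstream of a TSS of the neighbour Sdb.

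The gene phol (FBgn0035997, chromosome 3L, 9452803 to 9456281, minus strand), for the Pho relative, had 3 weaker candidates. Summit 1 lay 75 bp upstream of the phol TSS with a signal of 119 at rank 9304. Its nearest TSS was that of asRNA:CR45873, 17 bp away, and CG3437, CG3552 and asRNA:CR45873 overlap it. The position therefore does not assign it to phol. Summit 1 ranked 3429 in replicate 1 and 29073 in replicate 2 and lay in no region of replicate 3, so the replicates did not place it alike. Summit 2 was the only member candidate in a coding exon of its own gene, with a signal of 78.8. Summit 3, at 135 and rank 7708, was 51 bp downstream of a TSS of the neighbour ghi, past the 3′ end of phol, and ranked 16433, 5917 and 2950. A strong summit with a signal of 204 lay 1117 bp past the 3′ end of phol, just outside its window, 114 bp upstream of CG3448.

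The windows of z, pho and Spps had no pooled candidate. For z (FBgn0004050, chromosome X, 2447769 to 2450550, plus strand), the nearest candidate was 4957 bp from the gene with a signal of 114.9, and the nearest strong summit was 51026 bp away. In the window of z, replicate 1 alone had a region, at rank 14645, with its summit 166 bp from a z TSS. In the length class of z, 49.4% of genes had no candidate.

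The gene pho (FBgn0002521, chromosome 4, 1172469 to 1181628, minus strand) had no region in any replicate list. Its nearest candidate was 17769 bp away with a signal of 113, and its nearest strong summit was 59222 bp away. In its length class, drawn from all chromosome arms, 13.5% of the 1182 genes had no candidate. Genes of chromosome 4 were not counted apart, so this share may not hold for them. Spps (FBgn0039169, chromosome 3R, 24223445 to 24226934, minus strand) had its nearest candidate 1440 bp away with a signal of 76.3. Replicate 2 had 1 region at rank 18588 and replicate 3 had 1 at rank 10975, both within 500 bp of its TSS. In its class, 28.4% of genes had no candidate. The nearest strong summit to Spps was 3552 bp away, with a signal of 390, 76 bp upstream of a TSS of the neighbour mask. A candidate below the signal of the pooled list's last region would not be seen at any of the 3 genes.

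**Figure D3:**
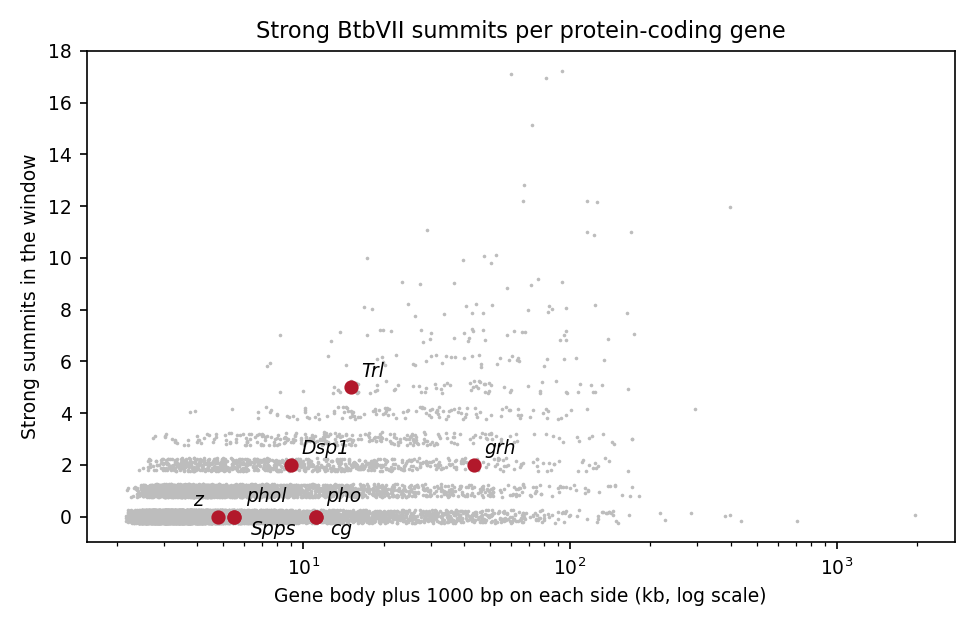
Number of strong summits (y axis) against the length of the gene body plus 1000 bp on each side (x axis, kb, log scale). Grey points are the 13945 protein-coding genes, spread slightly up and down so that they can be told apart, and red points are the 8 members; Trl stands at 5, Dsp1 and grh at 2, and the other 5 at 0.

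Across the 9 strong summits, 6 lay in the top 5219 regions of all 3 replicates, against 58.9% of all strong summits, and the other 3 did so in exactly 2. By replicate, 7 lay in the top regions of replicate 1, 9 in those of replicate 2 and 8 in those of replicate 3. All 9 lay in some region of each replicate list. The pooled list was made from these replicates, so this support is in part built in. The replicate ranks of Trl summit 3 and Dsp1 summit 1, the strongest of the 9, differed by the fewest places.

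The 23 weaker candidates had less support. None lay in the top regions of 2 or 3 replicates, 6 did in 1 replicate and 17 in none. These candidates rank below 5219 in a list pooled from the replicates, so this too is in part built in. The share over all other candidates is not given here. Among the 6, cg summits 2 and 3 fell in the same region of replicate 3. Only 7 lay in some region of all 3 lists. Their signals ran from 55.9 to 159 with a median of 84.7, while the strong summits ran from 206 to 3114 with a median of 386. The gap between both sets includes the limit of 172.41 that defines them.

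**Figure D4:**
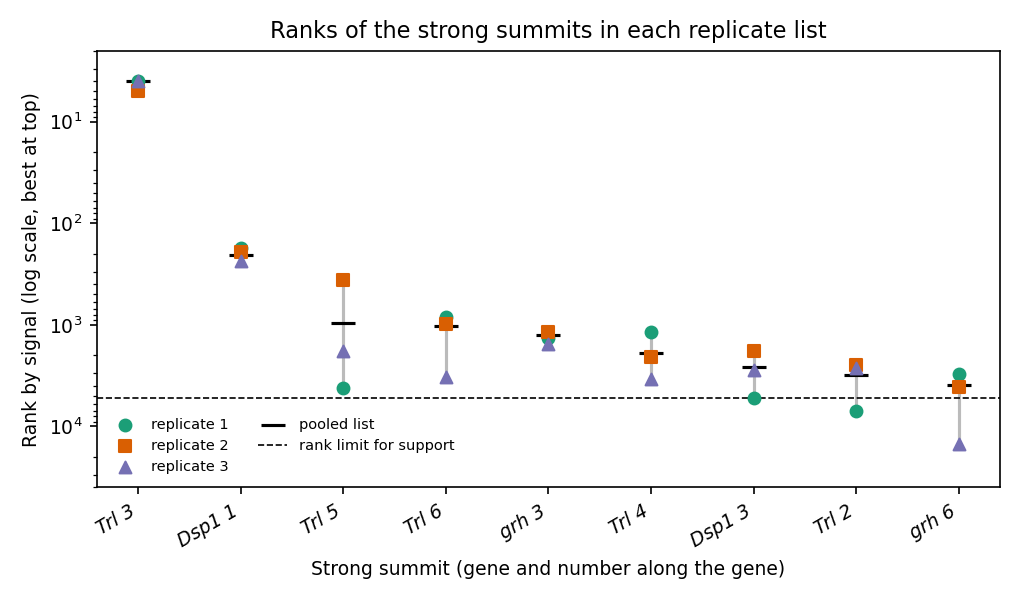
Rank by signal of the 9 strong summits in the list of each replicate (points, coded by colour and shape) and in the pooled list (black bars), on a log axis with the best rank at the top. The dashed line marks rank 5219; Trl summit 2 and Dsp1 summit 3 in replicate 1 and grh summit 6 in replicate 3 fall below it.

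Within 500 bp of any annotated TSS lay 2 of the 9 strong summits, Trl summits 4 and 5, against 49.4% of all strong summits. Counting only TSSs of the member gene, 2 of the 9 lay within 500 bp and 6 within 1000 bp, so the count depends on the distance chosen. The share of all strong summits within 1000 bp is not given here. By position in the member gene, 7 were intronic, 1 was in a 5′ UTR and 1 was outside the gene. Of the weaker candidates, 12 were intronic, 3 in a 5′ UTR, 2 in a 3′ UTR, 1 in a coding exon and 5 outside the gene. Within 500 bp of a TSS lay 8 of the 23. The shares of these places over all strong summits and over all other candidates are not given here. The counts therefore do not show a preference for introns or any other place.

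The GC content of these windows around the summit ran from 24.9% to 45.8% over the 9 strong summits, with a median of 31.8%. Over all 5219 strong summits the median was 36.8%, and the mean was 37.7% ± 8.16 (SD). The 23 weaker candidates ran from 29.4% to 57.2% with a median of 44.8%, against a median of 40.3% and a mean of 40.6% ± 8.11 (SD) over all 24781 other candidates. Trl summit 3, grh summit 6 and Trl summit 6 were the most AT-rich of the strong set at 24.9%, 26.4% and 27.4%.

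Words bound by GAGA factor, Pho and Phol, Zeste, Cg and Grh were counted in the same windows on both strands. No word for Spps or Dsp1 was searched. GAGAG was present at 3 of 9 strong summits, Trl summit 4 and both strong summits of grh, against 27.8% of all strong windows and 24.1% of the others. GAGAGA, which contains GAGAG, was present at 1, grh summit 3, against 13.5% and 10.01%. GCCAT was present at both strong summits of Dsp1 and at no other strong member summit, against 26.3% and 32.7%. The Zeste words were present at 2, Trl summits 4 and 6, against 27.7% and 29.0%. No strong member window held GTGTGT, the repeat bound by Cg, which 16.6% of strong and 17.2% of other windows hold. None held AACCGGTT, a Grh word, which is in 0.383% and 0.363% of windows. With 9 windows, such counts describe these sequences and no more.

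Among the 23 weaker windows, GAGAG occurred in 7, against 24.1% of all other candidates. GCCAT occurred in 5 (against 32.7%), the Zeste words in 7 (against 29.0%) and GTGTGT in 6 (against 17.2%). AACCGGTT occurred in 1, grh summit 8, against 0.363%. At cg, 4 of the 8 windows held GTGTGT, against the same 17.2%, with 13 matches between them. Overlapping matches within 1 window each counted, so a single GT repeat can give several. The longest run of alternating G and A was 6 bp over both the strong and the weaker windows. Trl summits 2, 3 and 5 were the strong windows without any of the words searched.

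Other genes of the pathway were read in the same way. Of 17 genes for subunits of Polycomb complexes, 8 had a strong summit, 14 summits in all, against 29.1% of all protein-coding genes. Their windows ran from 3.60 to 17.0 kb with a median of 7.22 kb, so they fall in 3 length classes. Of all genes, 19.3% with a window under 5 kb had a strong summit. The share was 35.6% for 5 to 10 kb and 53.1% for 10 to 20 kb. The rule for named genes asked only for counts of the subunits, and they are named here after their values were seen, all 8 with a strong summit in order of best signal. The highest signal was at ph-p, for a subunit of Polycomb repressive complex 1, with 4 strong summits and a best signal of 1871 at rank 33, 442 bp upstream of a TSS. Its neighbour and near copy ph-d had 2 strong summits and a best signal of 1197, 815 bp upstream of a TSS. How reads were placed between these copies cannot be checked from the lists. Psc, another subunit gene of Polycomb repressive complex 1, had 2 with a best signal of 541, 5074 bp downstream of a TSS. E(z), the methyltransferase of Polycomb repressive complex 2, had 1 of 518 that lay 83 bp downstream of a TSS. Su(z)2, a relative of Psc, had 2 with a best signal of 345, 262 bp downstream of a TSS. Su(z)12 and Pcl, both of Polycomb repressive complex 2, had 1 each, at 222.2 and 222.1. That of Su(z)12 lay 26 bp downstream of a TSS. That of Pcl lay 5385 bp downstream, past the 3′ end of the gene, whose window is 6.57 kb with 1000 bp on each side. Sfmbt, the partner of Pho in its complex, had 1 of 183, 351 bp upstream of a TSS. Of the 9 without a strong summit, calypso, escl and Caf1-55 had a best candidate of 171.9, 108 and 54.6. Pc itself had 3 candidates, the best at 66.8, and esc, Sce, Scm, Jarid2 and Asx had none.

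Of 4 further genes for proteins linked to Polycomb response elements, 3 had a strong summit, against 29.1% of all protein-coding genes. For windows of 5 to 10 kb, the class of lolal, Adf1 and Clamp, the share was 35.6%. The share for windows of 50 kb and over, the class of psq, is not given here. Adf1 had 3 with a best signal of 1055 at rank 155, psq had 7 in a window of 61.4 kb with a best signal of 552, lolal had 1 of 274 that lay 21 bp upstream of its TSS, and Clamp had no candidate. The proteins of psq and lolal carry a BTB domain, as GAGA factor does. BtbVII, the tagged gene, had 3 strong summits with a best signal of 1771 at rank 37, below summit 3 of Trl. In its class, windows of 10 to 20 kb, 53.1% of genes had a strong summit. The copy number of the tagged gene was not stated, and its effect on signal at this gene was not tested.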

How the data were processed

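The members and gene lists were chosen with earlier results of these data known. The authors deposited narrowPeak lists, and the value used here is the signal of each region in them, per the file headers and README files. Per the deposited README files, the alignments behind every list comprise those of the replicates and 1 more. The peak caller, the aligner, the IDR threshold and any filters were not stated in the sources used here. Only lists on dm6 entered the work.

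Summits, counted from 1, were placed on Ensembl release 115 gene models (BDGP6.54) and the Release 6 genome with Python 3.11.15, pandas 2.3.3 and numpy 2.4.6. A summit belonged to a gene when it lay in the body or within 1000 bp. Length classes refer to this window. A replicate supported a summit that lay in 1 of its 5219 regions of highest signal; where several regions held a summit, the best rank is given. Words were counted in 201 bp, 100 bp on each side. Placement and word counts were tested on simulated data. The rule for named genes was to describe all members, every strong summit and the best candidate of each, with genes that share a summit; of the other lists, the PRE-linked genes could be named and the subunits counted. No test was made, because the samples form 1 group, and no p-value is given. Alternatives varied the window, the strong set, the replicates, the overlap and the word window.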

Additional observations from a re-analysis of the deposited data

How the results depend on the processing

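Of 39 alternatives to the summary counts, 37 stayed within 1.5 times the values reported. The tally holds the counts without a replicate under both strong and supported summits, with the same values. Leaving out a replicate can only keep or raise the number of supported summits. The number of members with a strong summit stayed at 3 under every alternative except a window of 2000 bp and the overlap of regions by any base, when phol joined and it was 4. Only summits within 1000 bp of a member TSS numbered 13 candidates in place of 32, of which 6 were strong in place of 9, and Trl then had 3 strong summits and grh 1. Widening the word window to 250 bp on each side gave GAGAG at 6 of the strong summits in place of 3, since a longer window holds more words by construction. Leaving out each replicate in turn and asking for the top regions of both others left 6 to 8 strong member summits in place of 9, in 3 genes each time. With the higher-signal 2609 summits alone, 7 strong member summits were left. When any of a replicate's 30000 regions counted as support, all 9 were supported by all 3 replicates. Of 64 alternatives to the counts of single genes, 8 moved. Dsp1 fell to 1 strong summit when the gene body alone, a window of 500 bp or assignment to the nearest TSS was used, since summit 1 lies 591 bp upstream of the gene and 579 bp from the TSS of CG9921. No paired analysis was possible because the samples form 1 group. The depth of the libraries is unknown, and a gene without a candidate may hold signal below the end of the list.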
